A study of Mus musculus with 2 samples.

Results

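Ki-67, the protein of Mki67, is a widely used marker of dividing cells, and its RNA is described here beside that of 9 other proliferation genes in chromatin-bound RNA of mouse macrophages. The 10 genes are Mki67, Top2a, Plk1, Mcm2, Mcm5, Ccnb1, Cdk1, Aurkb, Ckap2l and Timeless, and all 10 were found by symbol among the 55536 annotated genes of the deposited tables, 22028 of them protein coding. They were chosen because their levels in these same libraries looked unlike each other, with Mki67 high and genes of DNA synthesis and mitosis low. The levels are therefore a description and no test was made of them.

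The cells were macrophages grown from the bone marrow of C57BL/6J mice, primary cells and not a line. They were exposed to lipid A, the lipid part of endotoxin and a ligand of Toll-like receptor 4, at 100 ng/ml for 12 h, kept without it for 12 h after a wash, and exposed again to 100 ng/ml for 75 min. Chromatin-bound RNA, with ribosomal RNA removed, was sequenced as 2 libraries, biological replicates 1 and 2 of this 1 group, begun from 250 and 500 ng of RNA. Both carry the same donor entry, sex and age are not recorded, and no untreated or proliferating sample was analysed here, and each spread given is that between 2 samples that may share a culture. Annotated genes held 18388793 expected counts in replicate 1 and 17640464 in replicate 2, where 3 counts are 1.63e-05% and 1.70e-05% of the library. Of 12 listed macrophage markers, 12 had at least 1 TPM in both libraries, with Adgre1 (the F4/80 antigen) highest by mean at 497 and 193 TPM, and their levels summed to 1523 and 1221 TPM. TPM is a level corrected for transcript length and scaled to the same sum in every library, and protein-coding genes held 25.9% and 28.0% of it.

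Ki-67 coats mitotic chromosomes and keeps them apart, and organises heterochromatin and the nucleolar rim between divisions. Its RNA and protein rise through S, G2 and M phase and fall in resting cells, together with most genes of replication and mitosis. That shared rhythm is set largely at promoters: E2F factors act on S-phase genes, while the DREAM and MuvB-MYB-FOXM1 complexes act on G2 and M-phase genes through the cell-cycle homology region (CHR), often beside the CCAAT box that binds NF-Y. Macrophages grown from marrow in growth factor can divide, and Toll-like receptor ligands are known to arrest them.

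The promoters are shown because the motifs found in Mki67 also occur in some, not all, of the genes that were low. RefSeq windows on GRCm38.p6, running from 250 bases before to 50 after the annotated start, were given for 9 of the 10 genes and not for Aurkb. The searched motifs, on both strands, were CCAAT for the NF-Y box, TTTGAA and TTCGAA for the CHR, and TTTGGCGC, TTTCCCGC, TTTGCCGC and TTTCGCGC for the E2F site. Mki67 held 3 CCAAT boxes and 2 CHR letters, all upstream of its start, and no E2F letters. Below are Mki67, which was high, then Top2a, Cdk1 and Plk1, mitotic genes that were low, and Ckap2l, which differed most between the libraries. Each is printed 5′ to 3′ on the gene's own strand, with motif matches in capitals. The windows are chr7:135716330-135716629 (minus strand), chr11:99024140-99024439 (minus), chr10:69352863-69353162 (minus), chr7:122159185-122159484 (plus) and chr2:129297163-129297462 (minus).
Mki67: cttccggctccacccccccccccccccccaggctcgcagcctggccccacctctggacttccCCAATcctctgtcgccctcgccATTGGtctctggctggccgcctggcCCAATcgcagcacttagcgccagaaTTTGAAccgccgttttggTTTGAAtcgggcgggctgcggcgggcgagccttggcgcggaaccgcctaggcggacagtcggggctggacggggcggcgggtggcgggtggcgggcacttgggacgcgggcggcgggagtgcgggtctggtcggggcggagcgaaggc
Top2a: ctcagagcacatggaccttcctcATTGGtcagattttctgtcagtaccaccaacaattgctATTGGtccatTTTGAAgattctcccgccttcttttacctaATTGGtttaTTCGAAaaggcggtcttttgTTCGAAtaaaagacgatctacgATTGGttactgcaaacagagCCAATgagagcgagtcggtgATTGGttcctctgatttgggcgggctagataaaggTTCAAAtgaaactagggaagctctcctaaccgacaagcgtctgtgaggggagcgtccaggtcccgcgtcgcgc
Cdk1: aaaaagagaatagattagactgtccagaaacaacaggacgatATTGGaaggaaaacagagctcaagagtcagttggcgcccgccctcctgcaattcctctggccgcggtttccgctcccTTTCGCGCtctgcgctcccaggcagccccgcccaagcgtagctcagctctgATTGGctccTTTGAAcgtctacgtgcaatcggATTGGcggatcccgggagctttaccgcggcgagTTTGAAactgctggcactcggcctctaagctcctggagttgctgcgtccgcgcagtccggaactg
Plk1: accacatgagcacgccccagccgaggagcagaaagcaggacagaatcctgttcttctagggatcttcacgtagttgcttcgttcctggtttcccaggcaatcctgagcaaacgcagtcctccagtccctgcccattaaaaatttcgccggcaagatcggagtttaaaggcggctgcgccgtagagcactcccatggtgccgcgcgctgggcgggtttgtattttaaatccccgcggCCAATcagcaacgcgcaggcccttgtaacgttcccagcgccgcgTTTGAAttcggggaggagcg
Ckap2l: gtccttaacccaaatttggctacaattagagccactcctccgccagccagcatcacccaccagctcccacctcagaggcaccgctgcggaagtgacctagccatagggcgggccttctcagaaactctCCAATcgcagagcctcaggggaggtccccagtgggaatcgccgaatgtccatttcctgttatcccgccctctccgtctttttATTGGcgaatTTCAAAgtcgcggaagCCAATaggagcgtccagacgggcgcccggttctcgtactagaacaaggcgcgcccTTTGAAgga

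A CCAAT box was found in 8 of the 9 windows, against 37.9% of 27025 windows of the same length over all genes. CHR letters were found in 6 of 9 windows, against 19.4% of all, and were missing in Mcm5, Ccnb1 and Timeless. E2F letters were found in 2 of 9, Mcm5 and Cdk1, against 2.32% of all, and the 2 matches in Mcm5 overlap each other. The Timeless window held none of the motifs, but RefSeq's start there lies 6001 bases inside the gene as GENCODE M21 draws it. A match describes these letters only and is not evidence of a bound factor.

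**Figure D1:**
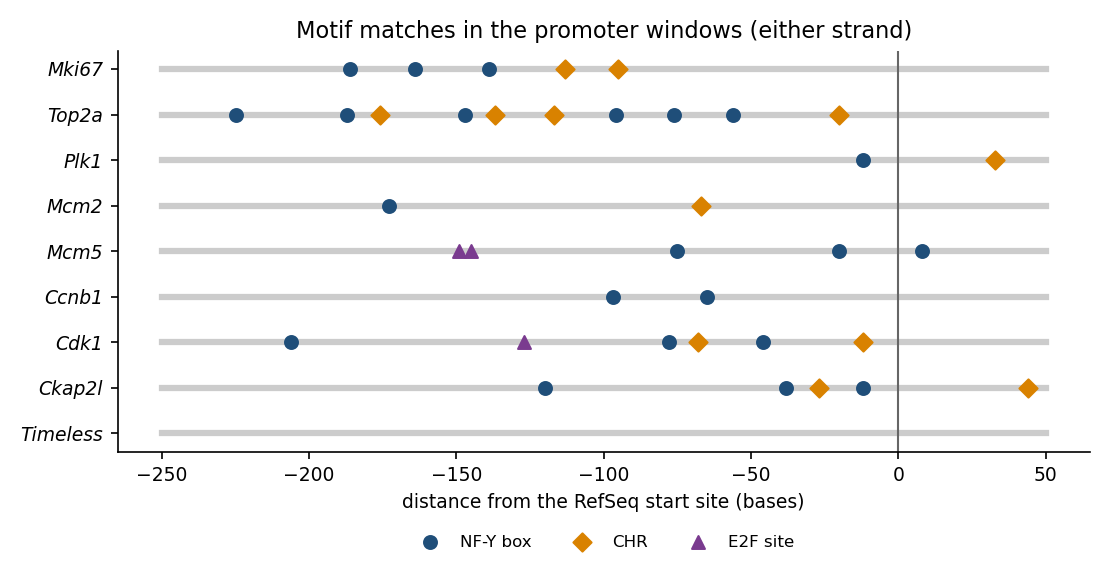
Motif matches in the RefSeq promoter windows of 9 genes, by distance from the start site in bases (0 is the start, grey bars are the windows, each symbol is the centre of a match on either strand). Mki67 carries 3 NF-Y boxes and 2 CHR matches, and the Timeless window is empty.

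Mki67 was far above the other genes in both libraries. The gene (ENSMUSG00000031004.8, chr7:135689784-135716361 on mm10, minus strand) had 11651 expected counts in replicate 1 and 14216 in replicate 2. Its level was 69.25 TPM in replicate 1 and 94.55 in replicate 2, a mean of 81.9 ± 17.9 TPM (SD, n = 2). These counts were 0.0634% of replicate 1 (95% Wilson interval 0.0622 to 0.0645) and 0.0806% of replicate 2 (0.0793 to 0.0819), intervals that cover counting error only. Among protein-coding genes 687 of 22028 had a higher mean TPM, and 96.9% had a lower one. In bulk RNA, few cells with much Mki67 RNA and many cells with little cannot be told apart.

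Of the other 9 genes, 3 reached 1 TPM in both libraries, namely Top2a, Mcm2 and Timeless, where 40.1% of all protein-coding genes did. Since the genes were chosen on these levels, nothing is read from that share. The median over the 9 of the mean TPM was 1.06, and within each library the median was 0.57, beside 0.29 over all protein-coding genes. Mki67 stood 18.1-fold above the highest of the 9 by mean TPM, and 6.08-fold above the sum of all 9. On the log2(TPM + 0.1) scale, Mki67 was 6.14 above the median of the 9.

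**Figure D2:**
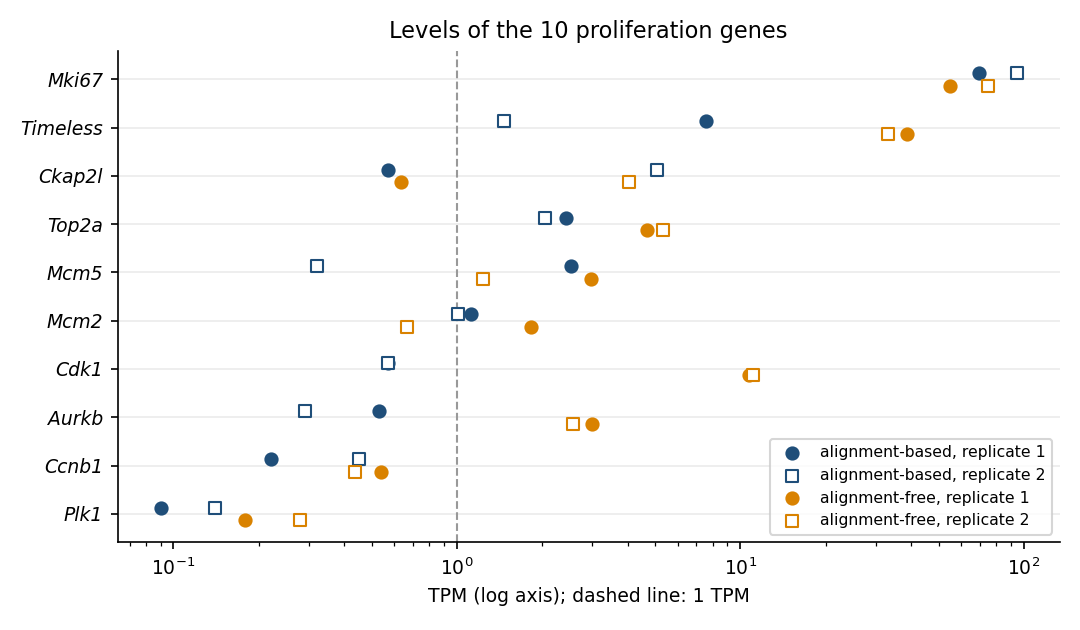
TPM (log axis) of the 10 genes in each library by each quantification program, blue for alignment-based and orange for alignment-free values, filled circles for replicate 1 and open squares for replicate 2. Mki67 lies at 55.05 TPM or more in all 4 values, while Timeless, Cdk1 and Aurkb lie higher by the alignment-free program.

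Of the genes of DNA synthesis, Timeless, which with Tipin steadies stalled replication forks, was the highest and had 361 counts and 7.56 TPM in replicate 1 and 78 counts and 1.47 TPM in replicate 2, a mean of 4.51 ± 4.31 TPM (SD, n = 2). Mcm2 and Mcm5 code for 2 of the 6 subunits of the ring helicase that is loaded at replication origins. Mcm2 had 49 and 25 counts, or 1.12 and 1.01 TPM. Mcm5 had 61 and 13 counts, or 2.52 and 0.32 TPM, so its libraries lay on opposite sides of 1 TPM. Part of that gap is length: the average transcript length that the program used for Mcm5 was 1667 bases in replicate 1 and 2885 in replicate 2, and TPM fell 7.88-fold where scaled counts fell 4.28-fold.

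Of the genes of chromosome untangling and mitotic entry, Top2a was above both Mcm2 values and Cdk1 and Ccnb1 were below them. Top2a, the topoisomerase that untangles sister chromosomes, had 149 and 95 counts, or 2.42 and 2.05 TPM. Cdk1, the kinase that drives entry into mitosis, had 13 and 5 counts and 0.57 TPM in both libraries. The average transcript length that the program used for Cdk1 was 1577 bases in replicate 1 and 801 in replicate 2, so its equal TPM came from unequal counts. Ccnb1, the cyclin B1 partner of Cdk1, had 6 and 8 counts, or 0.22 and 0.45 TPM. These values leave Cdk1 and its cyclin below 1 TPM in both libraries.

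Aurkb, the kinase of the chromosomal passenger complex, had 5 and 4 counts, or 0.53 and 0.29 TPM. Plk1, the polo-like kinase of spindle assembly, was the lowest, with 3 counts in each library and 0.09 and 0.14 TPM. An exact Poisson interval on 3 counts runs from 0.619 to 8.77 counts, so levels of this size carry wide counting error. Ckap2l, a spindle protein also called radmis, had 28 and 227 counts, or 0.57 and 5.06 TPM, the widest gap between libraries of the 10 genes as a fold.

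In order of mean TPM the genes ran Mki67, Timeless, Ckap2l, Top2a, Mcm5, Mcm2, Cdk1, Aurkb, Ccnb1 and Plk1. The 2 libraries of Mki67 did not overlap those of any other gene. From Timeless down to Mcm2, each gene's range over the libraries overlapped that of the next, so their order is not separated by these libraries. Cdk1 lay below both values of Mcm2 and above both values of Aurkb, whose range overlapped that of Ccnb1, and Plk1 lay below both values of Ccnb1. Cdk1, Aurkb, Ccnb1 and Plk1 had 13 counts or fewer in each library, with wide counting error, so their order is not settled either.

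The alignment-free program, which assigns reads to transcripts without an alignment file, gave the same leading gene and a different ranking below it. Mki67 had 55.05 and 74.62 TPM, or 64.8 ± 13.8 (SD, n = 2), with 1205 protein-coding genes above it. Timeless had 38.6 and 33.2 TPM by this program, close enough that Mki67 was 1.81-fold above it. Cdk1 had 10.7 and 11.1 TPM, and Aurkb had 2.998 and 2.56 TPM. By this program these 3 genes had at least 1 TPM in both libraries, as did Top2a with 4.69 and 5.33 TPM and Mcm5 with 2.97 and 1.24.

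With a pseudocount of 0.1 TPM, 4 of the 10 genes were at least 2-fold higher by the alignment-free program, against 38.6% of 15690 protein-coding genes with 0.1 TPM by either program. They were Cdk1 at 16.4-fold, Timeless at 7.80-fold, Aurkb at 5.65-fold and Top2a at 2.19-fold. Over the 15690 genes the median log2 ratio of alignment-free over alignment-based TPM was 0.64, so higher alignment-free values were not particular to these genes. Mki67 was 0.792 times and Ckap2l 0.836 times its alignment-based value. Of the other 9 genes, 5 reached 1 TPM in both libraries by this program, as did 51.8% of protein-coding genes.

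The alignment-free TPM of Cdk1, Timeless and Aurkb lay mainly on 1 or 2 short transcripts each. For Cdk1, transcript Cdk1-207, a protein-coding form of 695 bases, took 135 and 132 estimated counts and 92.9% and 97.2% of the gene's alignment-free TPM. The alignment-based program gave Cdk1-207 only 2.02 and 0 counts. For Timeless, the retained-intron transcript Timeless-209 (485 bases) took 149 and 119 estimated counts and Timeless-215 (456 bases) took 90.4 and 97.5, and both had 0 alignment-based counts in both libraries. Timeless-209 held 49.1% and 50.2% of the gene's alignment-free TPM and Timeless-215 held 32.9% and 45.3%. In counts, the protein-coding Timeless-206 (4402 bases) gained too, from 3.89 to 176 in replicate 1 and from 0 to 30.6 in replicate 2. For Aurkb, the retained-intron transcript Aurkb-208 (462 bases) took 17.8 and 14.9 estimated counts and none by alignment.

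Letters shared with other genes differed among these transcripts. Of the 31-base windows of Timeless-209, 28.8% also occur in annotated transcripts of other genes, as do 24.2% of those of Timeless-215. Cdk1-207 and Aurkb-208 share 0 windows, and Mki67-201 shares 118 of its windows, or 1.18%. Among 101638 transcripts of protein-coding genes, 22.0% share 10% of their windows or more. Whether shared letters bear on the difference between the programs was not tested. Ccnb1-201 shares 46.9% of its windows, and the deposited posterior SD of the Ccnb1 gene count was 0 in both libraries.

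Of the 2 transcripts annotated for Mki67, the full-length one was assigned nearly all counts. Its length equals that of the gene's merged exons, so the short form lies within its exons, and no entry covers the introns. These shares therefore cannot show whether the RNA was spliced or intact. Mki67-201, a protein-coding transcript of 10061 bases, held 100% and 98.95% of the gene's TPM by alignment and 91.6% and 89.2% by the alignment-free program. Mki67-202, a protein-coding form of 575 bases, held the remainder, 0 and 5.15 counts by alignment and 47.4 and 74.5 without. By counts, the full-length transcript held at least 99.55% in every library and program. The posterior SD that the authors deposited for the count of Mki67-201 was 1.74 and 3.48 counts, which is small beside its counts.

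No retained-intron transcript is annotated for Mki67, while 6 of the 10 genes and 41.4% of protein-coding genes have at least 1. Over the other 9 genes together, retained-intron transcripts held 27.8% of the summed TPM in replicate 1 and 10.04% in replicate 2 by alignment. By the alignment-free program they held 44.6% and 35.2%. Their shares of counts, which carry no length correction, were lower: 12.3% and 2.77% by alignment, and 23.7% and 15.1% by the alignment-free program. Timeless was split among many forms: its posterior SDs in replicate 1 were 37.7 counts on the 54.0 counts of Timeless-201 and 35.4 on the 149 counts of Timeless-205. Single Timeless isoforms are therefore not resolved, although its gene count carried a posterior SD of 0.

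**Figure D3:**
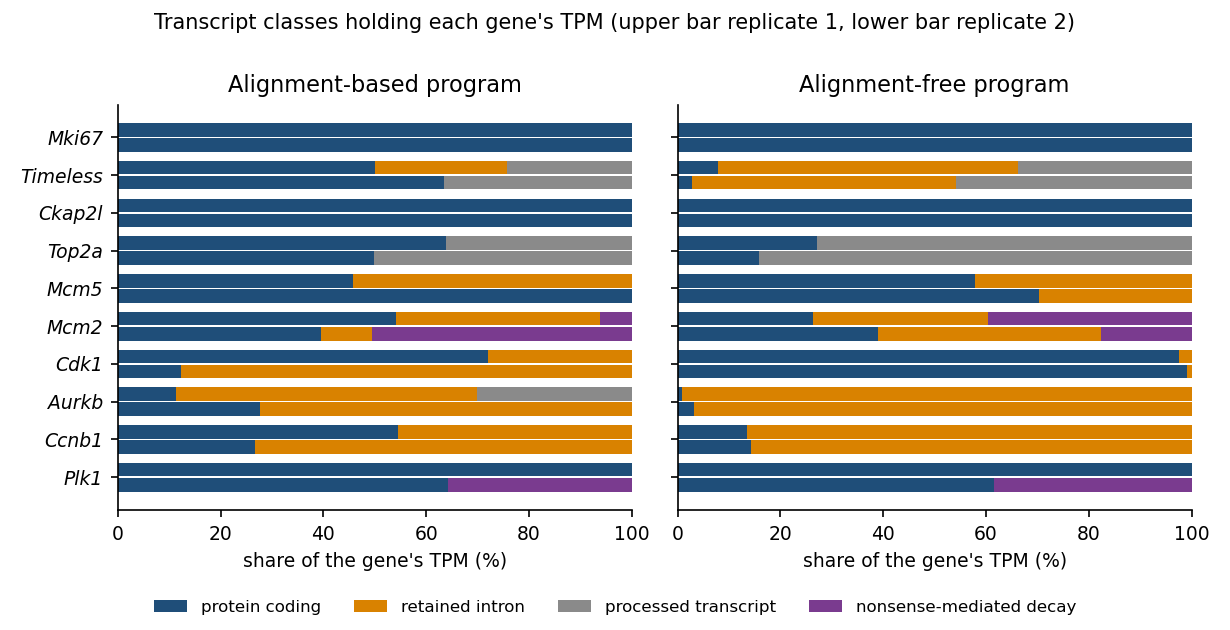
Share of each gene's TPM (%) held by annotated transcript classes, alignment-based on the left and alignment-free on the right, upper bar replicate 1 and lower bar replicate 2. Only protein-coding transcripts are annotated for Mki67 (2) and Ckap2l (1), so their bars could show no other class. Retained-intron and processed transcripts hold most of Timeless, Aurkb and Ccnb1 by the alignment-free program. Processed transcripts hold 72.9% and 84.2% of Top2a by that program.

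Mki67 has the longest exonic block of the 10 genes. Merged exons cover 10061 of its 26578 bases, or 37.9%, more exonic bases than 93.1% of protein-coding genes, beside 9013 in Top2a, and the exonic share is higher in Ccnb1 (53.2%), Aurkb (49.0%) and Mcm2 (45.4%). Its longest exonic block is 6836 bases, and 490 of 22028 protein-coding genes, Mki67 included, have one that long or longer. The longest blocks of the other 9 run from 512 bases in Plk1 to 3494 in Mcm2. Without a length correction, Mki67's counts exceeded the summed counts of Top2a 106-fold, where its TPM exceeded that of Top2a 36.6-fold.

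The neighbours of Mki67 did not reach its level. Ptpre, a receptor-type phosphatase on the plus strand, ends 3490 bases from the 3′ end of Mki67 and had 25.6 and 31.1 TPM. Mgmt, a DNA repair methyltransferase, is the nearest protein-coding gene on the 5′ side, 1178252 bases away, and had 0.27 TPM in both libraries. Inside Mki67 on the other strand lies Gm45240, a single-exon entry of the annotation's TEC class, with 40 and 30 counts. Whether reads were counted by strand is not known here, so reads of Gm45240 and Mki67 cannot be told apart, and its counts are few beside those of Mki67.

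Between the libraries, 6 of the 10 genes had at least 10 counts in each and could be compared by TMM-scaled counts, a scaling that centres most genes on no change. Ckap2l was 8.89-fold higher in replicate 2 and was the only gene of the 6 past 2-fold upward, where 3.23% of 10348 protein-coding genes were, and 4.02% of those with a mean of 15 to 250 counts. Mcm5 and Timeless were past 2-fold downward, where 3.28% and 5.17% were. The genes were picked with these libraries' values known, so the shares are given without a reading. Their log2 ratios, replicate 2 over replicate 1, were 3.15 for Ckap2l (95% counting interval 2.58 to 3.77), -2.10 for Mcm5 (-3.09 to -1.22) and -2.08 for Timeless (-2.45 to -1.72). By the alignment-free program the ratios were 2.62 for Ckap2l, -1.09 for Mcm5, -1.07 for Timeless and -1.13 for Mcm2, so that Mcm2 also passed 2-fold and Mcm5 and Timeless fell less. Mki67 was 1.34-fold higher in replicate 2, a log2 ratio of 0.42 (0.38 to 0.46). Top2a was at -0.52 (-0.90 to -0.14) and Mcm2 at -0.84 (-1.59 to -0.11). With 1 library on each side there is no replicate check of these ratios, and the intervals hold no spread between cultures.

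Genes beside 3 of these also differed between the libraries, and were picked after their values were seen. Il1a, the interleukin-1 alpha gene, ends 2397 bases upstream of Ckap2l on the same strand and had 2576 and 4497 counts, a log2 ratio of 0.94 (0.87 to 1.01). On the opposite strand, Gm14023 starts 157 bases from Ckap2l, runs across most of Il1a and had 2023 and 2613 counts, or 0.50 (0.42 to 0.59). With the strand setting not known, reads of Gm14023 and Il1a cannot be told apart. Hmox1, the heme oxygenase gene, ends 8979 bases upstream of Mcm5 and was at -1.07 (-1.59 to -0.56), and Tpra1, which runs divergently from Mcm2, was at -0.82 (-1.05 to -0.60). Not all neighbours moved with the gene: Slc20a1, downstream of Ckap2l, was at -0.54 (-0.66 to -0.42), and Stat2, 17617 bases downstream of Timeless, was at -0.12 (-0.15 to -0.08). What part these neighbours have in the members' counts was not tested. Macrophage markers differed too, in both directions: 7 of the 12 listed had a ratio below 1. Past 2-fold, 3 were lower and 0 higher, where 3.28% and 3.23% of protein-coding genes were. Adgre1, picked here after its values were seen, was at -1.28 (-1.32 to -1.24), while Cd14 was at 0.69 (0.57 to 0.82). The starting RNA of the libraries was 250 and 500 ng, so the gap between the libraries cannot be told apart from RNA input.

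Over the 5 lists of replication and mitosis genes (111 genes in all), 53 of the 77 genes with 10 counts in each library had a ratio below 1, or 68.8%, against 52.6% of all protein-coding genes and 58.3% of those with a mean of 15 to 250 counts. In the list of fork and nucleotide genes 18 of 22 did, with a median log2 ratio of -0.54. Mki67 lay on the other side, at 0.42. That is inside the 5th to 95th percentile of protein-coding genes in the highest bin of counts, -0.52 to 0.80 with a median of 0.14.

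**Figure D4:**
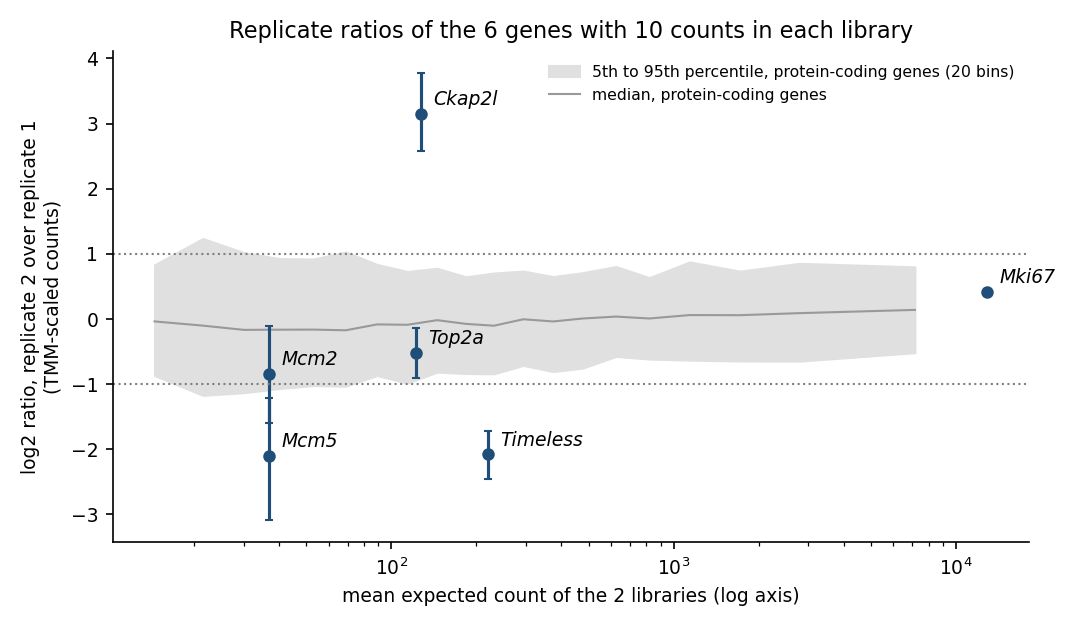
Log2 ratio of replicate 2 over replicate 1 against the mean expected count (log axis) for the 6 genes with 10 counts in each library, with 95% counting intervals; the grey band is the 5th to 95th percentile of protein-coding genes in 20 bins of count. Ckap2l lies above the band at 3.15, Mcm5 and Timeless lie below it near -2, and Mki67 lies at 0.42.

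No gene of replication or mitosis in the wider lists reached Mki67. These 5 lists hold 111 genes, 9 of which are members described above. Of the 111, 44 had at least 1 TPM in both libraries, where 40.1% of all protein-coding genes did. That share also stands beside the alignment-based counts of the single lists below. The median of the 111 was 0.97 TPM, with an SD of 0.191 between the medians of the libraries, beside 0.29 over all protein-coding genes. The highest, Smc4, had 25.5 TPM, 3.22-fold below Mki67, and 0 of the 111 lay above Mki67. By the alignment-free program 74 had 1 TPM, where 51.8% of protein-coding genes did, and the median was 2.27, beside 1.40 over all. The highest by that program was Kif23, a motor of cytokinesis picked here after its values were seen, at 44.8 TPM.

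Of 18 genes of origin licensing and the helicase, 8 had 1 TPM in both libraries and the median was 1.28 TPM. Dbf4, the activator of the Cdc7 kinase, led with 7.23 and 8.18 TPM, followed by Cdt1, the licensing factor, with 5.22 and 6.71, and Mcm10 with 3.25 and 5.45. Cdc6, the loader of the helicase, was lowest with 0.16 and 0.11. Of 26 genes of the fork and of nucleotide supply, 18 had 1 TPM and the median was 2.04 TPM. Pcna, the sliding clamp, had 14.6 and 23.2 TPM, Tk1, thymidine kinase, had 19.1 and 15.4, and Slbp, which binds histone mRNA stem-loops, had 13.4 and 11.3. The flap nuclease gene Fen1 was lowest, at 0.11 and 0.09.

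Of 19 mitotic kinases, cyclins and their regulators, 2 had 1 TPM in both libraries, the fewest of the 8 lists, and the median was 0.335 TPM. Pkmyt1, an inhibitory kinase of Cdk1, had 5.14 and 6.12 TPM, Ccnf had 1.25 and 2.76, and Melk had 1.27 and 0.97. Cdc25c, the phosphatase that activates Cdk1, had 0 and 2 counts by alignment and 8.76 and 6.93 TPM by the alignment-free program. The level of this list is thus the lowest of the 8 by either program, at 0.994 TPM by the alignment-free one.

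Of 26 genes of chromosome structure and segregation, 11 had 1 TPM and the median was 1.02 TPM. The condensin subunits Smc4 and Ncaph2 led, with 24.8 and 26.1 TPM and 25.2 and 23.5 TPM, and the checkpoint gene Mad2l1 had 9.87 and 15.3. Ube2c, the conjugating enzyme of mitotic exit, had 0 and 1 count by alignment, and 4.11 and 4.09 TPM by the alignment-free program. Of 22 spindle and cytokinesis genes, 5 had 1 TPM, with a median of 0.605 TPM. By mean TPM Ckap2l led this list, through its 5.06 TPM in replicate 2 alone, before Tacc3 with 2.93 and 2.16 TPM. Kif15, a spindle motor that binds Ki-67, had 2.84 and 1.83. Ckap2 was lowest with 3 and 0 counts by alignment, and had 1.06 and 1.36 TPM by the alignment-free program.

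Genes that set the cell-cycle programme were at higher levels. Of 19 regulators, 15 had 1 TPM and the median was 4.26 TPM. Rb1, the retinoblastoma protein gene, had 26.1 and 23.9 TPM, E2f4, the E2F of resting cells, had 14.6 and 16.7, and Rbl2, the p130 pocket protein of the DREAM complex, had 11.7 and 10.7. E2f7, a repressor E2F, was lowest by alignment with 0.25 and 0.10 TPM, against 24.9 and 20.96 by the alignment-free program.

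Partners of Ki-67 and of the chromosome periphery were broadly present. Of 18 genes, 16 had 1 TPM, with a median of 10.7 TPM and Mki67 above all 18. The nucleolar genes Ncl and Npm1 had 29.4 and 26.5 TPM and 26.0 and 24.8 TPM, and Ppp1cc, the phosphatase 1 subunit that Ki-67 binds, had 20.6 and 22.9. Cdca2, the other chromosomal targeting subunit of that phosphatase, also called Repo-Man, was lowest by alignment with 0.27 and 0.13 TPM. It had 2.37 and 1.78 TPM by the alignment-free program. Of 16 genes of the anaphase-promoting complex, through which Ki-67 is degraded, 15 had 1 TPM and the median was 9.08. By alignment, Anapc15 alone of these lists lay above Mki67, with 133 and 166 TPM, before Anapc1 with 59.6 and 44.9 and Anapc5 with 31.4 and 21.7. By the alignment-free program Anapc16, picked after its values were seen, also lay above Mki67 by mean, with 68.9 and 80.2 TPM against 4.92 and 6.04 by alignment. The mitotic activator Cdc20 was lowest with 0.11 and 0.21.

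**Figure D5:**
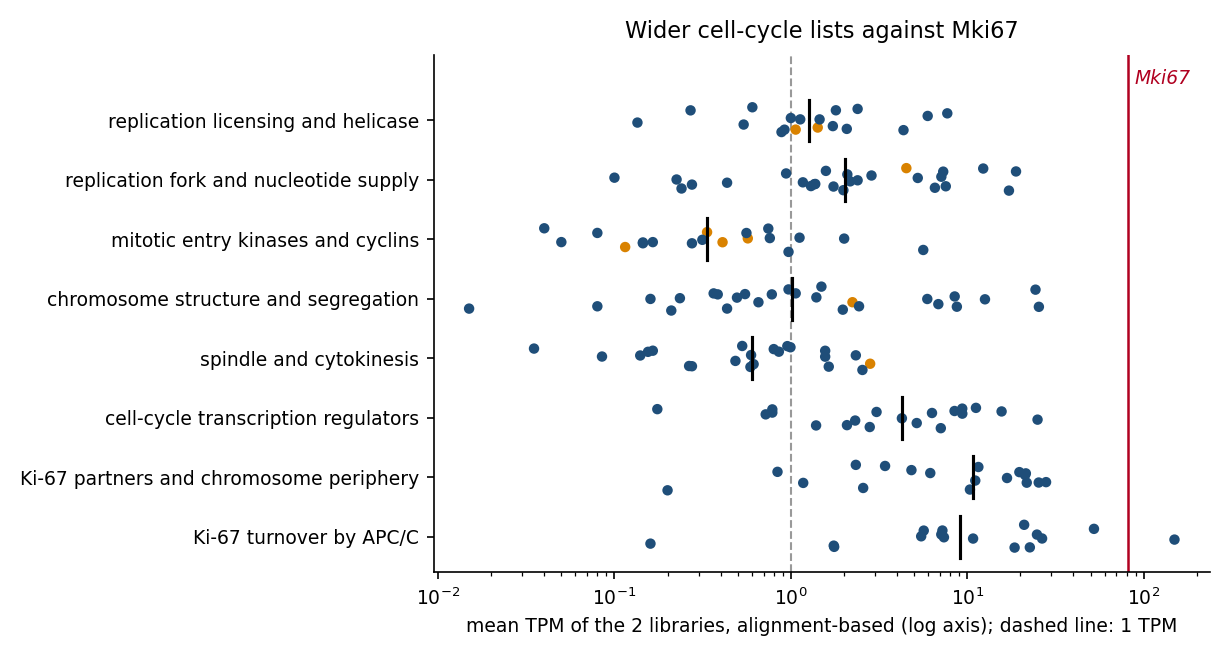
Mean TPM of the 2 libraries (log axis, alignment-based) of each gene in 8 cell-cycle lists, with members in orange, list medians as black bars and Mki67 as the red line at 81.9 TPM. Of these alignment-based values only Anapc15, in the list at the bottom, lies to the right of Mki67.

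Markers of cells that might bring proliferating RNA were low by alignment with few exceptions, and some were higher by the alignment-free program. By alignment, the haematopoietic progenitor list had 2 of 10 genes at 1 TPM in both libraries, a summed level of 139 and 199 TPM, and 3 genes with no count (Hoxa9, Sox4 and Mycn). Nearly all of it was Cdk6, a G1 kinase, with 87.7 and 148 TPM, and Cd48 with 51.1 and 49.7, and the stem cell factor receptor gene Kit had 2 and 25 counts. In the neutrophil precursor list 0 of 10 genes had 1 TPM, the summed level was 0.57 and 0.94 TPM, and 5 were at 0, Elane and Mpo among them, with S100a9 highest at 0.45 and 0.47. The erythroid list had 1 of 9, Tfrc, the transferrin receptor that macrophages also use, with 21.4 and 4.92 of the list's 21.6 and 5.21 TPM, and 4 were at 0, Klf1 among them. The B cell, T and NK cell and stromal lists had 0 of 10 each at 1 TPM, with 6, 6 and 3 genes at 0 (Pax5, Cd3e and Pdgfra among them) and summed levels of 0.15 and 0.03, 0.17 and 0.10, and 1.80 and 2.30 TPM. Their highest genes were Ms4a1, Klrb1c and Col3a1. By the alignment-free program 3 progenitor, 1 neutrophil precursor, 1 erythroid, 2 B cell, 2 T and NK cell and 3 stromal genes had 1 TPM in both libraries. Those that alignment had below 1 TPM, picked here after their values were seen, included Cd3d at 15.5 and 20.1 TPM, Thy1 at 12.3 and 14.1, Sparc at 5.43 and 6.22, Ebf1 at 2.14 and 2.87 and Mpo at 1.23 and 1.04. In Thy1 and Mpo the alignment-based count was 0 in both libraries. What part rare cells have in the Mki67 level was not tested.

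The 5 protein-coding genes most like Mki67 in level were not in the cell-cycle lists. That follows from the levels given above and is no separate result. Likeness was the distance between log2(TPM + 0.1) values over 4 values, 2 libraries by 2 programs, across all protein-coding genes. The 5 nearest were A530032D15Rik at 0.13, Dusp2, a nuclear phosphatase of MAP kinases, also at 0.13, Gbp8, a guanylate-binding GTPase, at 0.21, Marcksl1, an actin-binding protein, at 0.23, and Nufip2 at 0.24. Dusp2 had 65.7 and 90.0 TPM beside 69.25 and 94.55 for Mki67. Likeness over 4 values that share libraries and depth describes level and replicate gap only.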

How the data were processed

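The members and lists were chosen with earlier results of these data known. The deposited expected counts and TPM per gene and transcript came from each library's alignment to the mm10 transcriptome (GENCODE M21), and the deposited estimated counts and TPM of the alignment-free tables came from the reads, per the deposited description files and the file headers. The sources used here do not give the programs, their versions or the strand setting. TPM as deposited was scaled by the authors over all entries. Entries without an annotated gene (26345, holding 0.305% and 0.262% of expected counts) were left out.

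Alignment-free values were summed per gene. Replicate ratios rounded the expected counts and scaled them with edgeR 4.0.16 (TMM), with DESeq2 1.42.0 size factors as an alternative, where each library had 10 counts or more; intervals are exact binomial (scipy 1.17.1). With 1 group, no test was made and nothing was compared between conditions. The ratio step and the 31-base window step were tested on simulated data. Named were all members, the 3 highest and the lowest gene of each pathway list, the highest of each marker list, the 5 genes most like Mki67, its neighbours, and transcripts with at least 10% of a member's TPM or counts. Ahsp was the marker without a match. Intervals cover counting error only, since no molecular identifiers are in the files.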

Additional observations from a re-analysis of the deposited data

How the results depend on the processing

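Mki67 stayed above the median of the other 9 genes under every alternative run. The genes were chosen for that order in these same libraries, so the runs are no check of it. Its mean of 81.9 TPM became 302 TPM when TPM was rescaled over protein-coding genes alone, because those genes hold 25.9% and 28.0% of it. The median of the other 9, 1.06 TPM, became 3.96 on that scale, 2.34 by the alignment-free program, and ranged from 0.57 to 0.57 without a replicate. The log2 difference of 6.14 became 4.74 by the alignment-free program, 5.33 with a pseudocount of 1, 8.45 from counts with no length, 7.09 over protein-coding transcripts alone and 7.92 per merged exonic kilobase (added after seeing the data), and ranged from 6.69 to 7.14 without a replicate. The 3 of 9 genes at 1 TPM in both libraries became 5 by the alignment-free program, 5 at 0.5 TPM, 1 at 2 TPM and 7 over protein-coding genes alone. The share of Mki67 TPM on its leading transcript, 99.5%, was 90.4% by the alignment-free program, and the retained-intron share of the summed TPM of the other 9, 18.9%, was 39.9%. Over the 5 replication and mitosis lists, 44 genes and a median of 0.97 TPM became 74 and 2.27 by that program. The other 24 values of these main results stayed within the replicate spread or within 1.5 times. For the medians of the 8 single lists, 13 alternative values moved by more than the replicate spread and 11 did not. Every list median was higher by the alignment-free program, as with 0.605 against 2.13 TPM for the spindle and cytokinesis genes. The causes were not tested. No paired analysis was possible because there is only 1 group. Depth limits genes with under 10 counts in a library, here Plk1, Ccnb1, Cdk1 and Aurkb.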

Other observations

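All 6 subunits of the replicative helicase were lower in replicate 2, a pattern picked after the values were seen. Mcm2, Mcm3, Mcm4, Mcm5, Mcm6 and Mcm7 had 379 counts together in replicate 1 and 154 in replicate 2, with log2 ratios from -0.21 for Mcm4 to -2.10 for Mcm5 and a median of -1.19. Mcm3 had 76 and 33 counts, Mcm6 had 111 and 39, and Mcm7 had 49 and 18. By the alignment-free program the 6 ratios ran from -0.43 for Mcm4 to -1.24 for Mcm6. The interval of Mcm4, -1.01 to 0.57, includes no difference. Of protein-coding genes with a mean of 15 to 250 counts, 58.3% had a ratio below 1. With 1 library on each side these values compare libraries, and the RNA input of 250 and 500 ng differed with them.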
